A study of Mus musculus with 2 samples.

Results

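The nuclear lamina and nuclear positioning genes described here are the 3 lamin genes Lmna, Lmnb1 and Lmnb2, the inner nuclear membrane gene Emd, the KASH genes Syne1 and Syne2 and the SUN genes Sun1 and Sun2. They were chosen by symbol, as the annotation carried in the deposited tables gives it, and all 8 were found among 55536 annotated genes. Their levels came from total RNA-seq of gastrocnemius, a calf muscle, taken from male B6CASTF1/J mice at 4 days of age. B6CASTF1/J is a first-generation hybrid of C57BL/6J and CAST/EiJ, so each autosomal gene has an allele of either parent, and no treatment or engineered allele is named in the labels. The labels give 2 biological replicates, which make up 1 group, with different animal numbers and 300 ng of RNA in each library. Both libraries carry the same donor identifier, so taking them as separate animals rests on the replicate and animal numbers, and if they shared an animal the spread given here would be technical. There was no second condition, so genes and transcripts were compared within each library and the libraries with each other, and no test between groups was possible.

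Lamins are intermediate filament proteins that form a meshwork under the inner nuclear membrane. Lmna yields lamin A and lamin C, the A-type lamins, while Lmnb1 and Lmnb2 yield the B-type lamins. Emerin, the product of Emd, binds lamins and chromatin from the inner membrane. SUN proteins cross the inner membrane and hold the KASH ends of nesprins, made from Syne1 and Syne2, in the outer membrane. The resulting bridge, called the LINC complex, ties the nucleus to the cytoskeleton. In muscle fibres it is needed for the spacing of nuclei along the fibre and for their anchoring under synapses, and mutations in LMNA and EMD cause Emery-Dreifuss muscular dystrophy in humans.

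The coding sequences that separate the main products are shown first, because the transcript results turn on them. They are the mm10 reference, from the GENCODE M21 transcripts, and do not show CAST alleles. Lamin A (transcript Lmna-201, 665 codons) and lamin C (Lmna-203, 574 codons) share 568 codons and then part, at a place where lamin C reads on into the intron that lamin A removes. In the next 2 lines the last shared bases are in lower case and the first bases of each own end in capitals, on the minus strand at chr3:88483318-88483347 and chr3:88482583-88482612 for lamin A and chr3:88483297-88483347 for lamin C.
Lamin A, Lmna-201: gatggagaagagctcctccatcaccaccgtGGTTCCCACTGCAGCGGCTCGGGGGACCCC
Lamin C, Lmna-203: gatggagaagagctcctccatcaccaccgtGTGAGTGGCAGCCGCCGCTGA
The lamin A end runs on for 97 codons of its own and lamin C for 6, ending at the stop shown. Lamin A closes with a CaaX motif, the signal for farnesylation that lamin C lacks and that lamin B2 also carries. Its 4 codons are in capitals in the next 2 lines, which lie on the minus strand at chr3:88482346-88482354 and chr3:88482074-88482100 for Lmna-201 and at chr10:80902859-80902894 for Lmnb2-201.
End of lamin A, Lmna-201: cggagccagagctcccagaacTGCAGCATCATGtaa
End of lamin B2, Lmnb2-201: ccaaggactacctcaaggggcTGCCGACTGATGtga

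Nesprins are anchored by their last residues, the KASH domain, whose final stretch enters the pocket of a SUN protein. The last 93 coding bases were the same in the giant Syne1 transcript Syne1-205 and in the short Syne1-202, and matched the giant Syne2 transcript Syne2-210 at 70 of 93 positions. The 4 codons before each stop are in capitals below, at chr10:5022007-5022099 (minus strand) for Syne1 and chr12:76109952-76110044 (plus strand) for Syne2.
End of Syne1-205 and Syne1-202: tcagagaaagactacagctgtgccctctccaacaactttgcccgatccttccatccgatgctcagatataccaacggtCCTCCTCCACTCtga
End of Syne2-210: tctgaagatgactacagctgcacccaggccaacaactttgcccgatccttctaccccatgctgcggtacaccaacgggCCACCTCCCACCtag
The ends of the main SUN transcripts were alike too, with 53 of the last 63 coding bases identical. They lie in the SUN domain, which binds KASH, at chr5:139248469-139248531 (plus strand) and chr15:79725447-79725509 (minus strand), with the stop codon in capitals.
End of Sun1-201: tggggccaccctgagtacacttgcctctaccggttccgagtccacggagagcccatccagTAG
End of Sun2-201: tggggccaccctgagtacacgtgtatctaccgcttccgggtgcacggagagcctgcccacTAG

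The libraries held 35281187 expected counts in annotated genes in replicate 1 and 32301531 in replicate 2, and ERCC spike-ins took 0.635% to 0.650% of counts. The 5 skeletal muscle markers (Acta1, Ckm, Mylpf, Myh8 and Ryr1) were all detected and summed to 33420 to 35666 TPM, and those of fibroblasts to 5288 to 5344 TPM. TPM is a level of transcripts corrected for length and depth. The libraries stood apart in skin: 5 epidermal genes (Krt1, Krt5, Krt10, Krt14 and Krtdap) summed to 721 TPM in replicate 2 and 9.56 TPM in replicate 1. Endothelial, pericyte, macrophage, erythroid and satellite cell markers were all detected, with none over 1.5-fold apart. In such bulk tissue, fewer cells of a type and less RNA per cell cannot be told apart, and a level is an average over muscle fibres and all other cells.

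All 8 genes were expressed in both libraries, and Lmna stood far above the rest. Replicate 1 had 148.94 TPM, from 10245 expected counts, and replicate 2 had 145.92 TPM, from 9230. The mean of 147 ± 2.14 TPM (SD, n = 2, as for all means here) ranked 382nd among 12159 protein-coding genes with at least 1 TPM in both libraries. The value depends on the scale. It was 344 ± 6.83 TPM over all entries by a second quantification made directly from the sequence reads, called the FASTQ-based table here. Rescaled to nuclear protein-coding genes, the first quantification gave 353 ± 3.58 TPM. Rescaled in the same way, the second gave 469 ± 15.2 TPM and was above the first in both libraries. The means of 344 and 353 TPM are thus on different scales. Syne1, the next gene, had 35.83 TPM in replicate 1 and 30.15 TPM in replicate 2. The lowest Lmna value was thus well over the highest Syne1 value, with a 4.47-fold difference of the means. The lowest of the 8, Emd, had 12.73 TPM in replicate 1 and 14.43 TPM in replicate 2, at percentile 57.9 of the same genes. The 8 genes together summed to 314 TPM in replicate 1 and 312 TPM in replicate 2.

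**Figure D1:**
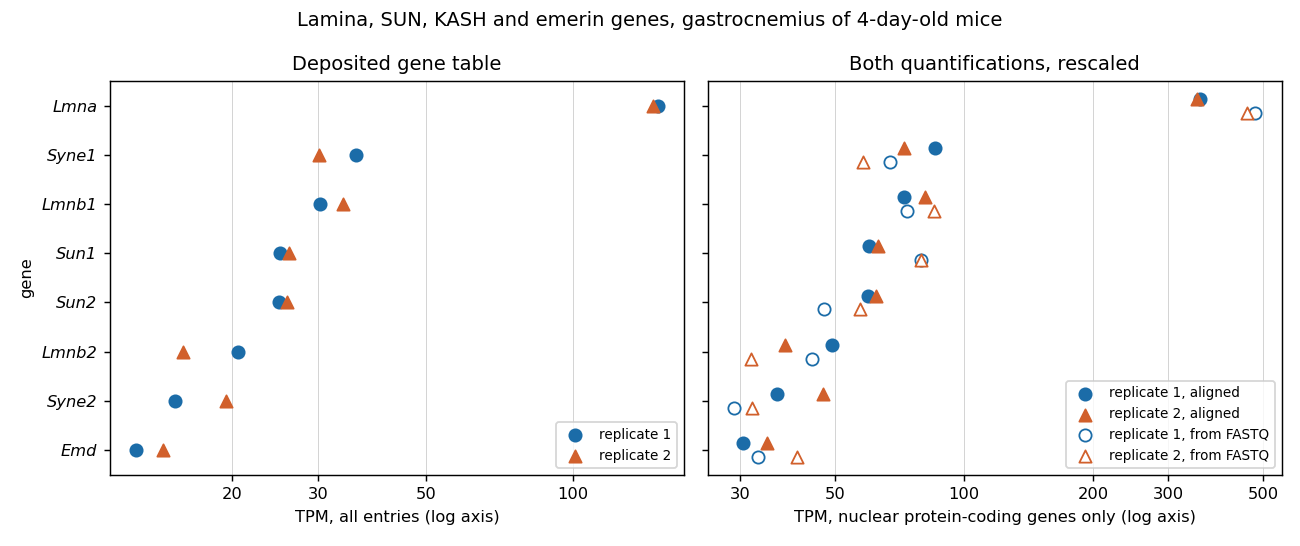
Level of each gene in each library on log axes, in TPM over all entries (left) and in TPM rescaled to nuclear protein-coding genes (right), where filled marks are the alignment-based and open marks the FASTQ-based quantification. Lmna lies far right of all others in both panels, while Syne1 and Lmnb1, Sun1 and Sun2, and Lmnb2 and Syne2 overlap on the left.

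The genes below Lmna formed a narrow ladder in which neighbours often could not be ordered. After Syne1 came Lmnb1 at 32.0 ± 2.43 TPM, Sun1 at 25.6 ± 0.735, Sun2 at 25.5 ± 0.693, Lmnb2 at 18.2 ± 3.34, Syne2 at 17.4 ± 2.96 and Emd at 13.6 ± 1.2 TPM. Values of the libraries overlapped between Syne1 and Lmnb1, between Sun1 and Sun2 and between Lmnb2 and Syne2, so the order within these pairs does not go beyond their spread. Lmna over Syne1 and Sun2 over Lmnb2 were the neighbouring steps whose values separated in both libraries and by both quantifications. The FASTQ-based table placed both Lmnb1 and Sun1 above Syne1, and Emd above Syne2. Its mean was 79.4 for Lmnb1, 79.3 for Sun1 and 62.6 for Syne1, and 36.9 for Emd and 30.5 for Syne2, in TPM of nuclear protein-coding genes.

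Among the lamins, Lmna (chr3:88480147-88509956, minus strand) held most of the transcripts. Of the summed lamin TPM, Lmna took 74.5% in replicate 1 and 74.6% in replicate 2. Lmnb1 took 15.1% and 17.2%, and Lmnb2 took 10.3% and 8.12%. The Lmna share hardly moved between the libraries, whereas the B-type lamins shifted against each other. On the log2 scale, with 0.1 TPM added, Lmna stood 2.20 ± 0.13 above Lmnb1, a 4.61-fold difference, and 3.02 ± 0.24 above Lmnb2, an 8.11-fold difference. Both gaps were over 2 SD from 0 and kept their direction by either quantification and in counts not divided by length.

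Lmnb2 (chr10:80901203-80918245, minus strand) was lower than Lmnb1. It had 20.6 TPM in replicate 1 and 15.87 TPM in replicate 2, beside 30.26 and 33.69 TPM of Lmnb1. The log2 ratio of Lmnb2 over Lmnb1 was -0.82 ± 0.37, so Lmnb2 was the lower in both libraries by an amount that differed between them. Lmnb1-201, of 588 codons, made up 91.4% ± 0.799 of Lmnb1 TPM, and 76.6% ± 4.33 by the FASTQ-based table. For Lmnb2 the transcript could not be settled: Lmnb2-201, of 615 codons, led with 68.92% in replicate 1 and 81.6% in replicate 2, but the FASTQ-based table gave it 5.40% and Lmnb2-204, of 596 codons, 84.8%. Even within 1 library the alignment-based split was loose, with a posterior SD (the uncertainty of the estimate itself) of 211 counts on 1426 counts of Lmnb2-201 in replicate 1 and of 160 on 1211 in replicate 2. Both forms share the lamin B2 end printed above. Both models also begin at position 80918245, and differ at the 3′ limit, at 80901203 for Lmnb2-201 and 80901364 for Lmnb2-204. Lmnb2-201 has 161 exonic nt that no other Lmnb2 transcript shares, and Lmnb2-204 has 0. The split between them therefore does not read out the coding start. There the annotated coding sequence of Lmnb2-201 has 57 more bases, in capitals before the start codon of Lmnb2-204 (chr10:80918132-80918218, minus strand).
Start of lamin B2, Lmnb2-201: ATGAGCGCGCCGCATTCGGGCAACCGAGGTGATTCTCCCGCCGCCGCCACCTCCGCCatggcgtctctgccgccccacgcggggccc

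By the alignment-based table, most Lmna TPM was assigned to lamin C. Lmna-203, the lamin C transcript of 10 exons, held 63.81% of Lmna TPM in replicate 1 and 60.94% in replicate 2. Lmna-201, the lamin A transcript of 12 exons, held 33.87% in replicate 1 and 32.77% in replicate 2. In TPM the lamin C transcript had 95.04 and 88.93, and the lamin A transcript 50.45 and 47.83, with no overlap between them. Within each library the posterior SD of either transcript's count was small beside the gap per length, at 108.8 and 143.3 counts on 5344 and 4658 for lamin C and 90.8 and 84.3 counts on 4512 and 3985 for lamin A. In counts not divided by length the 2 forms were closer, since the lamin A transcript is 3156 nt long and the lamin C transcript 2021 nt. Neither has exonic bases that no other Lmna transcript shares. The intron stretch that sets lamin C apart from lamin A also lies in Lmna-202 and the retained-intron Lmna-205. In total RNA, reads of unspliced Lmna RNA there could be assigned to lamin C. The posterior SD does not cover this, and it was not tested.

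The shares of whole transcripts moved more between the quantifications than the choice of end. The FASTQ-based table gave Lmna-203 only 23.8% ± 0.676 and Lmna-201 21.02% ± 0.0228. It placed 32.4% ± 1.47 in Lmna-206, a fragment of the 5′ end whose model has no stop, and 21.8% ± 2.19 in Lmna-202. Both were named after their values were seen. Lmna-206 had 0 counts in the alignment-based table, where 3 of the 7 Lmna transcripts had none. Among transcripts that carry a lamin A or a lamin C stop, the lamin A stop took 34.7% in replicate 1 and 33.6% in replicate 2, and 31.6% ± 0.741 by the FASTQ-based table. The TPM ratio of the lamin C stop over the lamin A stop was 1.88 in replicate 1 and 1.98 in replicate 2, and 2.12 and 2.22 by the FASTQ-based table. Counts not divided by length gave 1.18 and 1.23, and 1.09 and 1.13 by the FASTQ-based table. These lamin C sums include Lmna-202. Without it, Lmna-203 still led Lmna-201 in FASTQ-based TPM, at 84.6 against 73.3 in replicate 1 and 79.0 against 71.1 in replicate 2. In FASTQ-based counts Lmna-203 was the lower, with 3150 against 4584 in replicate 1 and 2697 against 4079 in replicate 2. Which end led in those counts thus depends on Lmna-202.

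Lmna-202 encodes lamin C2, a shorter lamin C known from the mouse male germline, of 462 codons. It begins in a first exon of its own and supplies 20 coding bases that the other forms lack, in capitals below (chr3:88493237-88493256 and chr3:88488404-88488431, minus strand).
Start of lamin C2, Lmna-202: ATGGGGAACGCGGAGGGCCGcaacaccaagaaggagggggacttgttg
It shares the rest of its coding sequence with lamin C. The alignment-based table gave it 0% of Lmna TPM in replicate 1 and 3.91% in replicate 2, where its count of 224 had a posterior SD of 120. Its level therefore ran from not detected to 23.4% of Lmna, by table and library, and lamin C2 cannot be called present or absent from these values. The retained-intron transcript Lmna-205, also named after its values were seen, held 2.32% and 2.37%. Retained-intron transcripts together took 3.86% ± 0.0983 of Lmna counts.

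**Figure D2:**
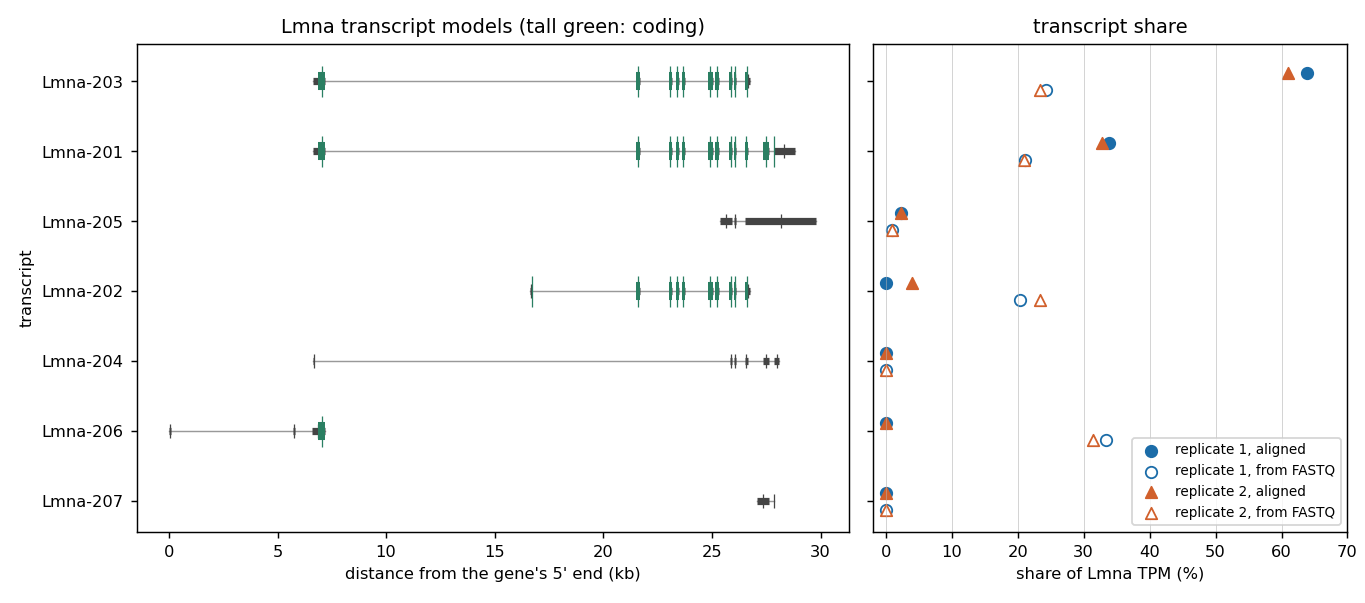
The 7 annotated Lmna transcripts, drawn by distance from the 5′ end of the gene in kb (left; tall green blocks are coding, dark blocks other exons, each at least 1 thin line wide), with the share of Lmna TPM of each in both libraries (right). Filled marks of Lmna-203 lie above 60% and those of Lmna-201 between 32.77% and 33.87%, whereas open marks spread over Lmna-206, Lmna-203, Lmna-202 and Lmna-201.

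Emd (chrX:74254687-74261548, plus strand) was low beside Lmna. The log2 ratio of Lmna over Emd was 3.43 ± 0.15, a 10.8-fold difference. Emd had 552 counts in replicate 1 and 571 in replicate 2, the fewest of the 8. Emd-201, of 259 codons, made up 93.9% ± 1.44 of its TPM, and 67.0% ± 10.8 by the FASTQ-based table. An overlapping pseudogene on the same strand, Gm14686, spans 343 nt of Emd exons and was given 2.38 and 3.43 counts.

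Of the nesprin genes, Syne1 (chr10:5020917-5551482, minus strand) stood above Syne2 (chr12:75818134-76110926, plus strand) in both libraries. Syne2 had 15.29 TPM in replicate 1 and 19.48 TPM in replicate 2, and no value overlapped those of Syne1. The log2 ratio of Syne1 over Syne2 was 1.22 in replicate 1 and 0.63 in replicate 2, with a mean of 0.93 ± 0.42 and a 1.90-fold difference. The direction was the same by the FASTQ-based table and in counts not divided by length. A gene on the other strand within Syne1, Gm10097, had 44 and 43 counts. Syne1 and Lmna had counts of the same order, 9257 against 10245 in replicate 1. Most Syne1 counts were assigned to the long transcript Syne1-205, of 27908 nt. The 4.47-fold gap of Lmna over Syne1 in TPM corresponded to a log2 ratio of 0.19 ± 0.06 in counts.

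By both quantifications the short Syne1 form had the higher TPM, while the giant form was assigned most of the counts. Syne1-202, with 17 exons, 949 codons and 3443 nt, held 63.59% of Syne1 TPM in replicate 1 and 56.36% in replicate 2. Syne1-205, with 146 exons, 8799 codons and 27908 nt, held 22.28% in replicate 1 and 25.36% in replicate 2. Syne1-206, a model of 25 exons with an incomplete end, held 7.89% and 10.26%. The FASTQ-based table kept this order, with 55.9% ± 5.50 for Syne1-202, 26.2% ± 1.65 for Syne1-205 and 10.1% ± 2.54 for Syne1-206. Per length, 2.85 copies of Syne1-202 were estimated for each Syne1-205 in replicate 1 and 2.22 in replicate 2. In counts the ratio was 0.343 and 0.267, and Syne1-205 alone took 71.9% ± 2.39 of Syne1 counts. The order of these forms thus depends on dividing by length, where Syne1-205 is 8.11 times as long.

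Syne1-202 is a C-terminal form that keeps the KASH end printed above. Of its 2850 coding bases with the stop, 2758 are also coding in Syne1-205, where they come from its 3′ part, and 69 coding bases of Syne1-205 within that stretch are left out of Syne1-202. The remaining 92 bases are its own start, in capitals below, followed by the first shared bases (chr10:5068807-5068898 and chr10:5061522-5061551, minus strand).
Start of Syne1-202: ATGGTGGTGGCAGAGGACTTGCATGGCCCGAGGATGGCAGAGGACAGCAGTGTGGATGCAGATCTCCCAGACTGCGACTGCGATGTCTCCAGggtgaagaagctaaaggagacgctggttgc
Such short C-terminal nesprin-1 forms, known from muscle and other tissues, lack the N-terminal actin-binding domain of the giant form. Syne1-202 reached 22.78 TPM in replicate 1 and 17.00 TPM in replicate 2. Syne1-205 was at 7.98 and 7.65 TPM, so the values of the short form lay further apart than those of the giant form. Transcripts ending in the KASH stop made up 83.8% ± 2.93 of Syne1 TPM.

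**Figure D3:**
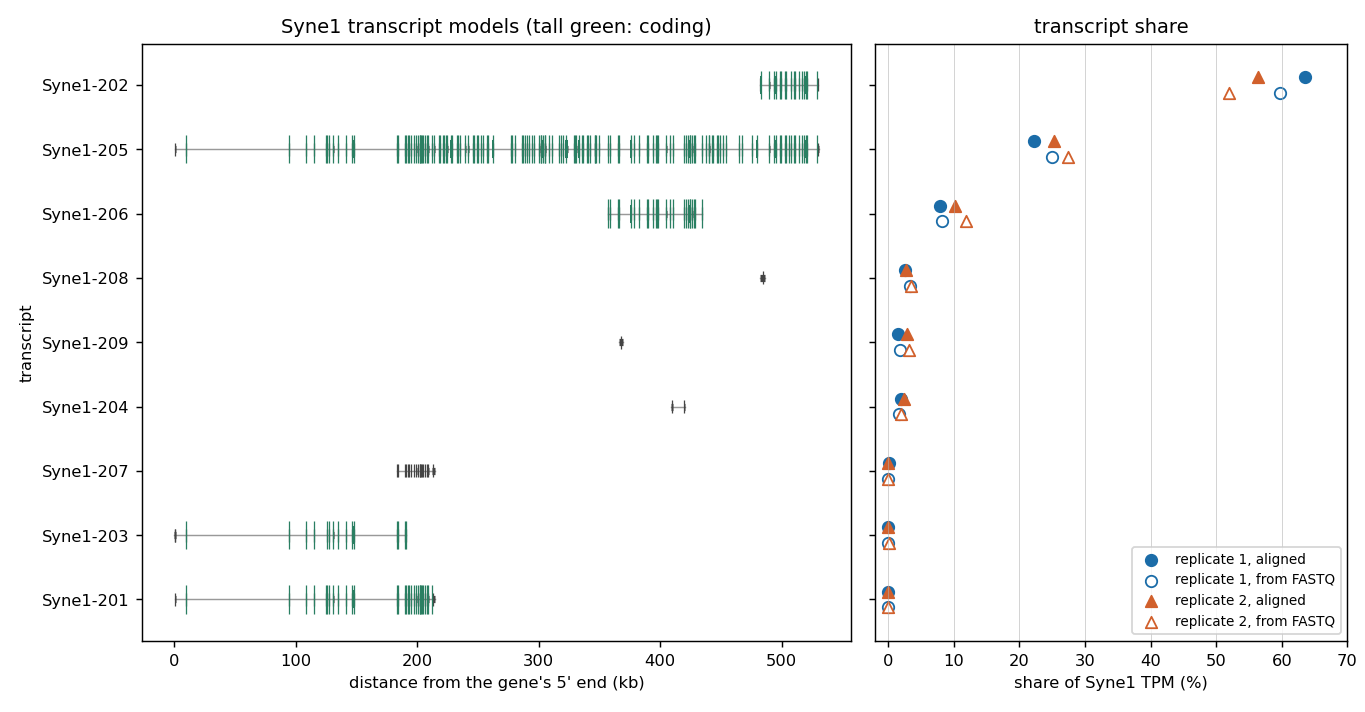
The 9 annotated Syne1 transcripts, drawn by distance from the 5′ end of the gene in kb (left; tall green lines are coding exons, short dark lines other exons, widened to be visible), with the share of Syne1 TPM of each in both libraries (right). Syne1-202 lies at the 3′ end of the gene and leads at 56.36% to 63.59% by the alignment-based table, ahead of the gene-spanning Syne1-205.

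Syne2 RNA was spread over more transcripts. Syne2-210, the leading one of 17, has 115 exons and 6870 codons and held 30.59% of Syne2 TPM in replicate 1 and 27.09% in replicate 2. Its share was 36.7% ± 0.485 by the FASTQ-based table. It took 77.1% ± 0.906 of Syne2 counts, so that most Syne2 counts, as for Syne1, were of the giant form. Syne2-210 was at 4.68 and 5.28 TPM, below the giant Syne1-205 in each library. Transcripts with the KASH stop held 41.2% ± 4.65 of Syne2 TPM, and summed to 7.09 ± 0.417 TPM, against 27.7 ± 4.32 TPM for Syne1. Syne1 thus supplied more KASH-ended transcripts than Syne2 in both libraries, with 30.76 and 24.65 TPM beside 6.80 and 7.39 TPM. Models without an annotated KASH stop are left out of these sums. They include short ones such as Syne2-212, of 585 nt, with 16.8% ± 4.54 of Syne2 TPM but 1.03% ± 0.373 of its counts. In counts, Syne2-202, which has the KASH stop, took 10.9% ± 0.967 of Syne2 besides the share of Syne2-210. The TPM share therefore does not show that most Syne2 RNA lacks the KASH end.

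Sun1 (chr5:139200637-139249840, plus strand) and Sun2 (chr15:79724070-79742536, minus strand) stood at the same level in the gene table. Sun1 had 25.11 TPM in replicate 1 and 26.15 TPM in replicate 2, and Sun2 had 24.99 and 25.97 TPM. Their log2 ratio of 0.01 ± 0.00 was nominally over 2 SD from 0 only because that SD was so small. The deposited interval of Sun1 in replicate 1, 24.6 to 28.8 TPM, overlapped that of Sun2, 23.2 to 28.2 TPM. The direction itself depended on the scale: the log2 ratio of Sun1 over Sun2 was 0.61 ± 0.20 by the FASTQ-based table and -0.26 ± 0.15 in counts not divided by length. At the level of whole genes no order of Sun1 and Sun2 is therefore given.

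The SUN genes also differed in how their RNA was divided. Sun1-201, of 913 codons, led 20 Sun1 transcripts with 41.58% in replicate 1 and 36.49% in replicate 2. The FASTQ-based table gave the lead to Sun1-219, an incomplete model of 4 exons, with 29.8% ± 8.52 beside 26.8% ± 1.95 for Sun1-201. Sun2-201, of 731 codons, led 10 Sun2 transcripts with 38.84% and 45.06%, followed by Sun2-203, of 729 codons, with 31.36% and 29.1%. Counted by transcripts with the SUN-domain end printed above, Sun1 had 17.18 and 15.12 TPM and Sun2 18.48 and 20.46 TPM. These values did not overlap, with Sun1 lower in both libraries. The FASTQ-based table had the same direction for such ends, with 26.99 and 24.36 TPM for Sun1 and 28.73 and 32.38 TPM for Sun2. Models whose annotated end is incomplete are left out of these sums. They include Sun1-211, at 1.77 and 2.73 TPM, and Sun2-204, at 1.11 and 2.01 TPM. In replicate 1 the gap of the alignment-based sums, 17.18 against 18.48 TPM, was smaller than the level of Sun1-211 alone. Retained-intron transcripts took 10.7% ± 0.718 of Sun2 counts and 7.48% ± 0.558 of Sun1 counts, the largest shares of the 8 genes. Genes annotated on the other strand within Sun1 and Sun2, 4930520M14Rik and Gm16575, had 0 to 2 counts, but the tables do not say whether strand was used in counting.

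Between the libraries the 8 genes differed little. None of the 8 was over 1.5-fold apart. The share was 3.99% among all 12421 genes whose counts averaged at least 100, with 3.13% higher and 0.861% lower in replicate 2. The median absolute log2 ratio of replicate 2 over replicate 1, after scaling by the trimmed mean of M-values, was 0.125 for the 8 genes and 0.125 for all those genes. The common biological coefficient of variation of the libraries was 0.269. It pools 17998 genes averaging at least 10 counts, the 5 epidermal genes among them, and is not a value of the 8 genes. Lmnb2 differed most, with 1354 counts in replicate 2 and 1917 in replicate 1. Its log2 ratio was -0.42, with an exact 95% counting interval of -0.52 to -0.32, and its size was at percentile 92.0 of all genes. The Lmnb2 ratio kept between -0.44 and -0.34 over the scalings tried and was -0.40 by the FASTQ-based counts.

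The log2 ratios of the other 7 genes ran from -0.15 for Syne1 to 0.13 for Syne2. Syne2 at 0.13, Emd at 0.13, Lmnb1 (chr18:56707813-56753424, plus strand) at 0.12 and Sun2 at 0.11 were higher in replicate 2. Syne1 at -0.15, Sun1 at -0.11 and Lmna at -0.07 were lower in replicate 2, though Lmna stood at 0.01 when scaled to the spike-ins. The counting interval left out 0 for 7 of the 8 genes, all but Emd, and for 42.7% of all genes tested, an interval that narrows as counts grow. The higher epidermal markers of replicate 2 given above lie beside these ratios, and their part in them was not tested. Skeletal muscle markers had a median log2 ratio of -0.10 (33420 TPM in replicate 2 and 35666 TPM in replicate 1), with none over 1.5-fold apart.

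**Figure D4:**
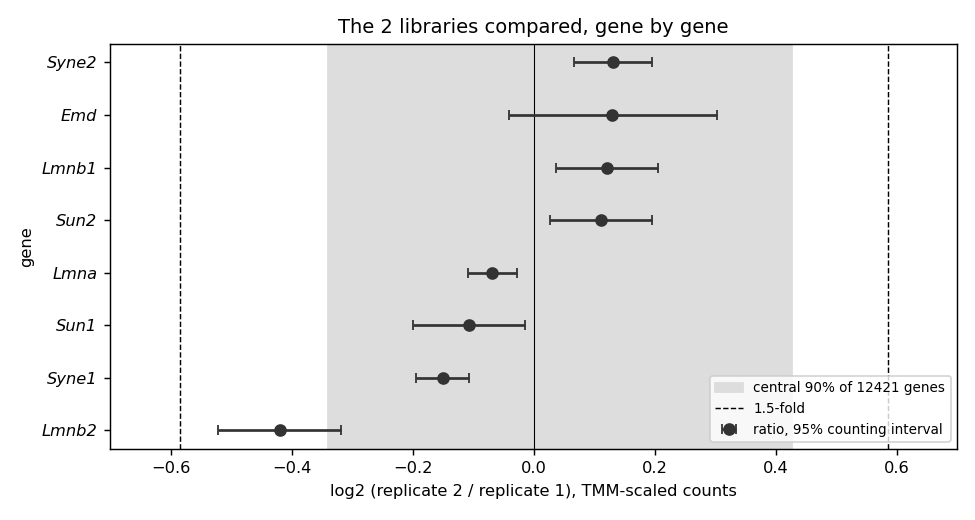
Log2 ratio of replicate 2 over replicate 1 of each gene, with exact 95% counting intervals, over the central 90% of 12421 genes (grey) and lines at 1.5-fold. Lmnb2, at -0.42, is the one gene outside the grey band, and no gene passes 1.5-fold.

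The listed other genes of the nuclear envelope were detected almost throughout, except among further SUN and KASH genes. For scale, 13987 of 55536 annotated genes of all kinds had at least 1 TPM in replicate 1 and 14472 in replicate 2. Protein-coding genes with at least 1 TPM in both libraries numbered 12159. The lists were chosen with earlier results known, so their counts only describe the genes listed. All 5 lamin processing genes had at least 1 TPM in both libraries, with a median of 9.53 TPM, against 25.6 TPM for the 8 genes. Fnta, a subunit of the farnesyltransferase that acts on the CaaX motif, led with 29.0 ± 1.45 TPM. Zmpste24, the protease that trims the lamin A precursor, had 9.63 ± 0.212 TPM and Icmt, which methylates the farnesylated end, 9.63 ± 1.39 TPM. All 17 inner membrane and lamina partners were detected too, with a median of 24.0 TPM. Tmem38a, a cation channel of the sarcoplasmic reticulum and nuclear envelope of muscle, stood at 211 ± 10.4 TPM, above Lmna. The FASTQ-based table reversed this order, with 339 and 319 TPM for Tmem38a and 348 and 339 TPM for Lmna. Tmpo, which encodes lamin-binding proteins with a LEM domain, followed with 71.96 ± 3.80 TPM and Banf1, a chromatin protein that LEM domains bind, with 56.8 ± 4.69 TPM. Tmpo, like Emd a LEM-domain gene, was thus higher than Emd in both libraries, at 69.3 and 74.7 TPM.

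Of 6 further SUN and KASH genes, 3 reached 1 TPM in both libraries. Syne3, the nesprin-3 gene, had 7.68 ± 0.643 TPM, Kash5 (Ccdc155 in the tables) 1.51 ± 0.290 TPM and Syne4 1.41 ± 0.205 TPM, all below every member of the 8. Of the other 3, Spag4 had 0.46 and 0.49 TPM and was named after its values were seen, and Sun3 and Sun5, known from the testis, had at most 1 count. No count of Sun5 was found in either library, and counting error alone allows up to 0.167 TPM in replicate 1, or 0.179 TPM in replicate 2. Sun3 had 0 counts in replicate 1, which allows 0.0939 TPM, and 1 count in replicate 2.

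All 12 nuclear pore genes were detected, with a median of 10.9 TPM, led by the basket genes Tpr at 53.6 ± 1.12 and Nup153 at 26.1 ± 1.31 TPM and the channel gene Nup62 at 20.97 ± 0.969 TPM. Of 23 nuclear positioning genes, 22 reached 1 TPM in both libraries, with a median of 27.8 TPM. Bin1, the amphiphysin 2 gene, whose product acts in triad formation and nuclear positioning in muscle, led with 341 ± 1.16 TPM. The small GTPase gene Cdc42 had 130 ± 3.39 TPM and Dctn1, the large subunit of the dynein partner dynactin, 60.5 ± 0.240 TPM. The exception was Pard6b, a polarity gene named after its value was seen, with 0.70 TPM in replicate 1 and 1.00 in replicate 2. The 6 proliferation genes were all detected, with Pcna at 38.2 ± 1.13, Top2a at 37.7 ± 3.47 and Mki67 at 27.3 ± 3.11 TPM. No gene of these 6 lists whose counts averaged at least 100 was over 1.5-fold apart between the libraries, beside 3.99% of all 12421 such genes. Below that count, Map7, a microtubule-binding gene of the nuclear positioning list named after its values were seen, had 134 counts in replicate 2 and 44 in replicate 1, a log2 ratio of 1.68. Spag4, with 19 counts in replicate 2 and 13 in replicate 1, and Sun3, with 1 and 0, were past 1.5-fold too, at 0.61 and 1.67.

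**Figure D5:**
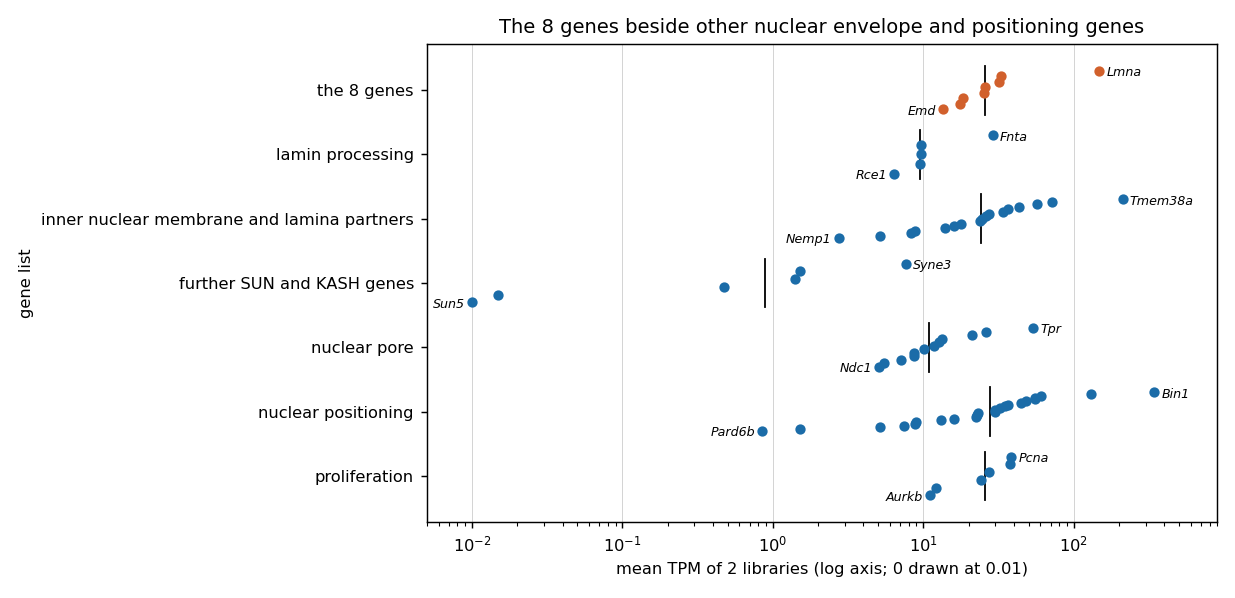
Mean TPM of 2 libraries on a log axis for the 8 genes (orange) and 6 lists of other genes (blue), with a vertical line at the median of each list and the names of the lowest and highest gene. By this alignment-based TPM Lmna is passed by Tmem38a and Bin1, of which Tmem38a stood below it in the FASTQ-based table, and the further SUN and KASH genes lie below 8 TPM, where a value of 0 is drawn at 0.01.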

How the data were processed

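The gene and transcript tables of 2 libraries were used as deposited. Their expected counts and TPM, per the file headers, carry RSEM column names, with TPM scaled over all entries by the authors. The deposited transcript share is a percent of the gene's TPM, and the deposited TPM interval is treated as a signal value whose level is not stated. A second deposited transcript table with kallisto column names holds estimated counts and TPM made from FASTQ files and was summed per gene. Build mm10 and GENCODE M21 come from the deposited notes, while the aligner, program versions and strand setting were not given in the sources used here.

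Depth was 35281187 and 32301531 counts in genes, and numbered entries that name no gene (4 and 6 counts) were left out. Intervals and the limit of 3 counts for a count of 0 cover counting error only. Ratios of replicate 2 over replicate 1 were scaled in edgeR 4.0.16, run in R 4.3.3, after adding a prior of 0.5 counts, and the procedure was tested on simulated data. The coefficient of variation came from edgeR over 17998 genes averaging at least 10 counts, and it, the intervals and the size factors used counts rounded to whole numbers. DESeq2 1.42.0 size factors, no scaling and spike-ins were alternatives. With 2 values the smallest exact two-sided p is 0.5, so no test was made. Genes and lists were chosen with earlier results of these data known. The text names all 8 genes, Lmna and Syne1 transcripts of 5% or more, each other leading transcript, and of each list the 3 highest genes and those under 0.1 TPM. Any other name was chosen after its values were seen. The result of 1 marker list is not reported here. Figures were drawn with matplotlib 3.10.9.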

Additional observations from a re-analysis of the deposited data

How the results depend on the processing

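No result of the 8 genes was tested, so these values show only how far each moves. By the FASTQ-based table the log2 ratios were 2.56 for Lmna over Lmnb1, 3.64 for Lmna over Lmnb2, 3.67 for Lmna over Emd, 0.61 for Sun1 over Sun2 and 2.90 for Lmna over Syne1. There the lamin A stop took 31.6%, Lmna-201 21.02%, Lmna-203 23.8% and Syne1-205 26.2%. In counts not divided by length the log2 ratios were 2.59 for Lmna over Lmnb2, 4.11 for Lmna over Emd, 0.19 for Lmna over Syne1 and, reversed, -0.26 for Sun1 over Sun2. As shares of counts, the lamin A stop took 45.4%, Lmna-201 43.6%, Lmna-203 51.3%, Syne1-202 21.9% and Syne1-205 71.9%, and Syne1-202 was 23.3% of both Syne1 forms. Counts not divided by length favour long transcripts by construction, and the cause of the other shifts was not tested. At 5 TPM, 1 of the further SUN and KASH genes remained. The log2 ratio of Lmna, replicate 2 over replicate 1, was 0.012 and thus reversed under spike-in scaling, which moved all genes by 0.08 on the log2 scale. With 1 library left out, the Lmnb2 over Lmnb1 log2 ratio ran from -1.08 to -0.55, Syne1 over Syne2 from 0.63 to 1.22, and Syne1-202 from 56.36% to 63.59%. The number of genes over 1.5-fold stayed at 0 under all 6 alternatives run for it. No paired analysis was possible because there is 1 group. Transcript splits rest on estimation, whose error the spread of 2 libraries does not cover. The level of each of the 8 genes in TPM over all entries was higher in the FASTQ-based table, and rescaling to protein-coding genes raised it too. Nuclear protein-coding genes held 41.9% and 41.6% of alignment-based TPM in replicates 1 and 2, and 72.6% and 73.9% of FASTQ-based TPM. With both rescaled to these genes, Syne1, Sun2, Lmnb2 and Syne2 were lower in the FASTQ-based table, and Lmna, Lmnb1, Sun1 and Emd higher. Syne1, for example, had 62.6 against 79.0 TPM. With 2 libraries, the spread itself is poorly known.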
